A study of Homo sapiens with 2 samples.

Results

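Oestrogen receptor α (ERα, encoded by ESR1) peaks in the outermost 3 Mb of the autosomes were examined in T47D cells, an established ERα-positive human breast cancer line. The peaks were taken from the deposited hg19 list if their centre lay within 3 Mb of either end of chromosomes 1 to 22, and the short-arm ends of the acrocentric chromosomes 13, 14, 15, 21 and 22 were left out. This gave 814 peaks at 39 ends, out of 12688 peaks in the whole list and 12355 on chromosomes 1 to 22. The comparison zone, 3 to 10 Mb from the same ends, held 1644 peaks. Ends are named by chromosome and arm, so that 16q is the end of the long arm of chromosome 16.

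The series has 1 ChIP library and 1 input library, both from T47D cells. The cells of both had been held without steroids for 48 h and then exposed to 10 nM 17β-estradiol for 45 min. The ChIP library was made with the ERα antibody H-20, and the input library with no antibody. No unstimulated cells were analysed here, so the peaks show occupancy under estradiol and not a change caused by it. Neither library was repeated, so replicate error could not be measured, samples could not be compared, and p-values are left out. Intervals below are 95% intervals of counting error within this list, and they treat peaks as independent. The read depth behind the list is unknown.

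ERα is a ligand-activated transcription factor of the nuclear receptor family. Estradiol lets it bind DNA as a dimer, mostly at distal enhancers rather than promoters, and often at sites opened by the pioneer factors FOXA1 and GATA3. A chromosome ends in telomeric repeats, and the adjoining subtelomeric sequence is rich in segmental duplications shared between ends. Further inward, many human chromosome ends are gene-rich and light in Giemsa staining, a pattern in which pale (negative) bands mark GC-rich, gene-dense chromatin. Sequences of the peaks are not shown because no hg19 sequence was used here, and no peak was assigned to a gene.

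ERα peaks were denser near the ends than in the interior of the chromosomes. The outermost 3 Mb made up 4.06% of the autosomal length and held 6.59% of the autosomal peaks. Their density was 6.96 peaks per Mb (exact Poisson interval 6.49 to 7.45), against 6.02 (5.73 to 6.32) from 3 to 10 Mb of the same ends. The ratio was 1.16 (exact conditional interval 1.06 to 1.26). Against the adjoining 3 to 6 Mb alone it was 1.06, with an interval of 0.959 to 1.17 that included 1. Over the autosomes more than 3 Mb from any end the density was 4.20 per Mb (4.12 to 4.28), so the ends were 1.66 times as dense (1.54 to 1.78). The comparison zone was itself denser than that interior, 1.43 times (1.36 to 1.51), with the zone counted within it. The interior length keeps the centromeres and the rest of the left-out short arms. Unsequenced bases there can hold no peak, which lowers the interior density and raises both ratios to it.

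The density did not fall evenly with distance. By 1 Mb steps from the end inwards it was 7.26, 7.95 and 5.67 peaks per Mb in the end zone, and then 6.69 and 7.90 in the next 2 steps. From 5 to 10 Mb it ran between 4.87 and 6.15. The first 2 steps and the fifth stood highest, and the third step (interval 4.94 to 6.47) lay below its inner neighbour (5.91 to 7.55), with overlapping intervals. At finer scale the outermost 0.25 Mb had 6.46 peaks per Mb (4.97 to 8.27) and the next 0.25 Mb 5.03 (3.72 to 6.64). The density then reached 9.23 (7.42 to 11.4) both at 0.75 to 1 Mb and at 1.25 to 1.5 Mb.

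**Figure D1:**
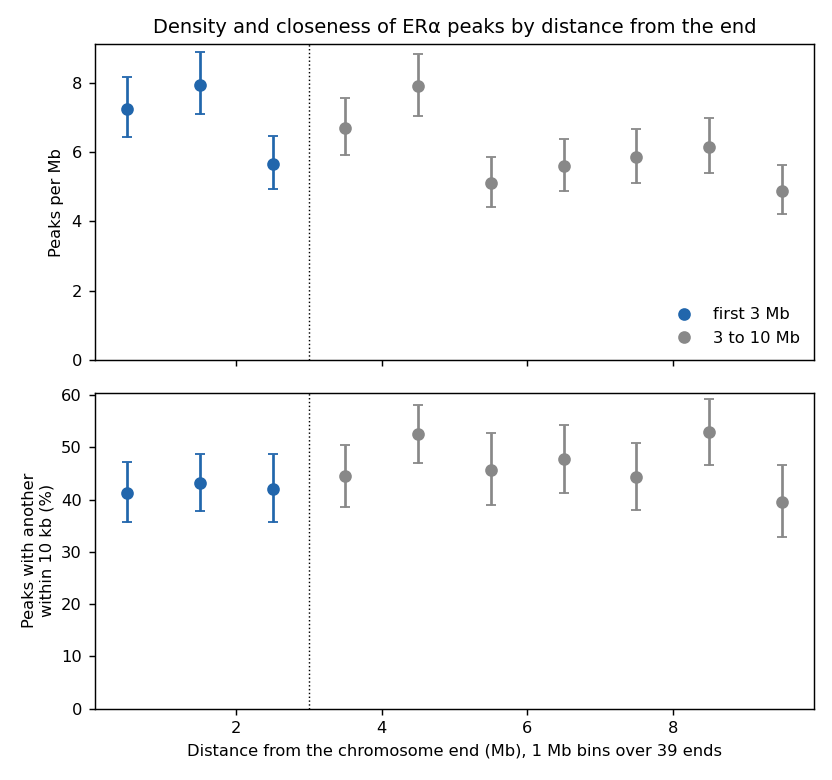
Upper panel: ERα peaks per Mb in 1 Mb bins from the chromosome end, summed over 39 ends, with exact Poisson 95% intervals. Lower panel: the percentage of peaks with another peak centre within 10 kb, with Wilson 95% intervals. Blue marks the first 3 Mb and grey the zone from 3 to 10 Mb. The density is highest at 1 to 2 Mb (7.95) and 4 to 5 Mb (7.90), and the 3 outer bins lie between 41.3 and 43.2% in the lower panel.

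The excess was not shared by the ends. The first 3 Mb were denser than the next 7 Mb at 19 ends and less dense at 19, and both densities were equal at 12q. The median end had a ratio of 1 and a density difference of 0 peaks per Mb. At 10 ends the ratio of that end alone had an interval wholly above 1: 5p, 6q, 7p, 8q, 11p, 12p, 14q, 16p, 19p and 20q. It lay wholly below 1 at 3p, 11q and 17p and included 1 at the other 26. These 39 intervals were not adjusted for their number, and they count closely neighbouring peaks as independent. Across the 39 ends the density of the end zone and that of its neighbouring zone had a Spearman correlation of 0.440 (Pearson 0.541), given as a description because all ends come from the same libraries.

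The ends differed 25-fold in their number of peaks. The 6 fullest held 265 of the 814 peaks (32.6%), whereas the 20 emptiest held 206 (25.3%). First came 17q with 50 peaks (16.7 per Mb, interval 12.4 to 21.97). It was followed by 16q with 49, 19p with 47 and 16p with 45. The ends of 7p and 14q held 37 each. The intervals of these 6 ends, which ran from 8.68 to 21.97 at their outer bounds, overlapped one another, so their order is not beyond counting error. The median end held 18 peaks. No end was without a peak: the fewest were 2 at 3p, 3 at 2p and 4 at 18p.

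Neighbouring zones set some of these ends apart. At 16p, whose outer band 16p13.3 is known for the α-globin genes and a high gene density, the density was 15 peaks per Mb (10.9 to 20.1) in the first 3 Mb and 3.71 in the next 7 Mb. The ratio was 4.04 (2.44 to 6.82), and the difference was the largest of the 39 ends. At 5p the ratio was 5 (1.92 to 14.5), from 15 peaks against 7. At 16q both zones were dense, with 16.3 and 18.7 per Mb and a ratio of 0.873 (0.615 to 1.22). At 3p the order was the opposite of that at 16p: 0.667 peaks per Mb (0.0807 to 2.41) stood beside 7.57 in the next 7 Mb.

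**Figure D2:**
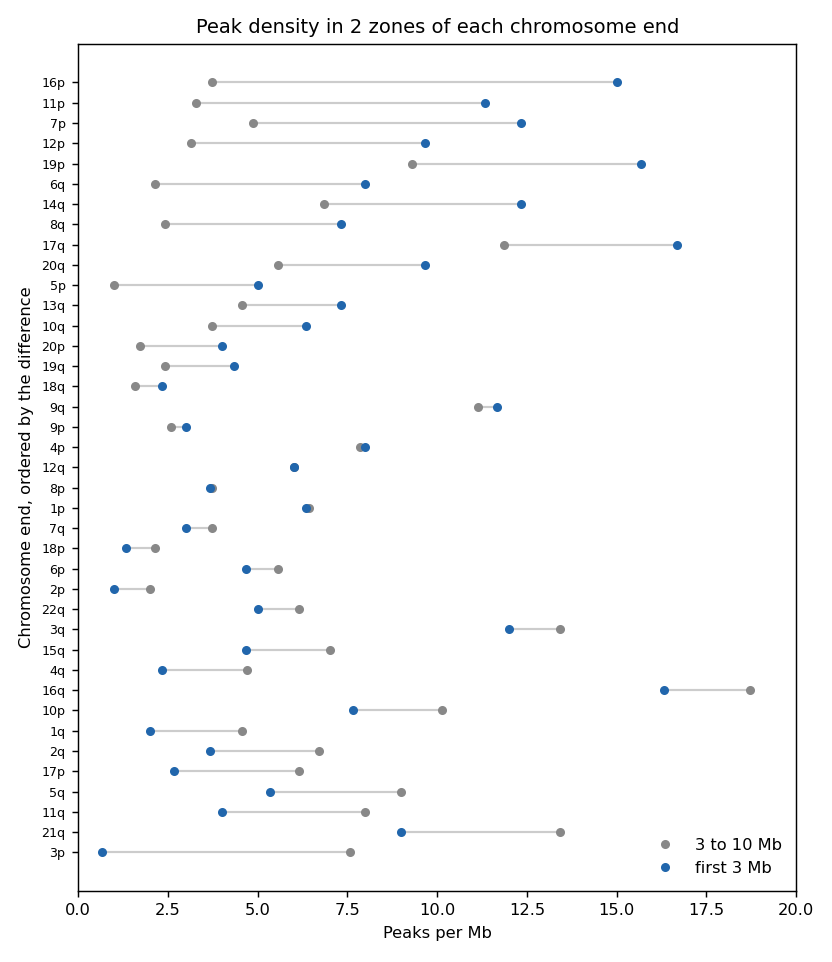
Peaks per Mb in the first 3 Mb (blue) and from 3 to 10 Mb (grey) of each of 39 chromosome ends, ordered by the difference between both, with a line joining the pair. Values are single counts without error bars. The end of 16p has the largest excess (15 against 3.71) and 3p the largest deficit (0.667 against 7.57), with 19 ends on each side of 12q.

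Short-arm and long-arm ends had like densities but different surroundings. The 17 short-arm ends held 336 peaks, or 6.59 per Mb (5.90 to 7.33), and the 22 long-arm ends 478, or 7.24 (6.61 to 7.92). From 3 to 10 Mb the short arms had 4.77 peaks per Mb and the long arms 6.99. The ratio of the end zone to its neighbour was 1.38 (1.202 to 1.58) on the short arms and 1.04 (0.929 to 1.16) on the long arms, and the difference between these ratios was not tested. On the 17 chromosomes with both ends counted, the long-arm end had more peaks on 10 and the short-arm end on 7.

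The staining bands differed between the zones and moved with the density. By the hg19 ideogram, Giemsa-negative bands took up 87.6% of the first 3 Mb and 52.1% of the next 7 Mb. They held 767 of the 814 end peaks (94.2%). Within negative bands the density was 7.48 per Mb (6.96 to 8.03) near the ends and 7.02 (6.59 to 7.47) further in, a ratio of 1.07 whose interval of 0.968 to 1.17 included 1. In the remaining, darker bands the order turned: 3.25 per Mb (2.39 to 4.32) near the ends and 4.94 (4.56 to 5.33) further in, a ratio of 0.658 (0.479 to 0.885). Without 16q the ratio in darker bands was 0.457 (0.304 to 0.663). The part of staining in the density of the ends was not tested, and the darker bands pool several stain grades. They made up 2.8 Mb of the 3p end with its 2 peaks, all 3 Mb of the 4q end with its 7, and 2.83 Mb of the 19q end with its 13. An exception was 16q, where 1.35 Mb of a darker band held 18 peaks.

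The scores of the end peaks ran from 50.03 to 3145.54. The score is the authors' own value for each peak, on a scale no source used here explains, and it serves only to rank peaks within this list. The median was 121.7 near the ends (quartiles 71.1 and 412.3) and 134.2 from 3 to 10 Mb (72.1 and 368.4), a difference of -12.6 with an interval of -28.7 to 4.56. The list's overall median score was reached by 48.5% of the end peaks (Wilson interval 45.1 to 52.0%) and by 52.0% of those further in (49.6 to 54.4%), a difference of -3.48 percentage points (-7.66 to 0.716). Peaks at or above the list's upper quartile made up 27.3% and 26.0% of the zones. No difference in score beyond counting error was detected between the zones. Taken by score, the density ratio of the zones was 1.24 (1.098 to 1.40) for peaks below the list's median and 1.08 for those at or above it, with an interval of 0.954 to 1.22 that included 1. The difference between these ratios was not tested. Among the ends, 54.2% (48.8 to 59.4%) of the short-arm peaks and 44.6% (40.2 to 49.0%) of the long-arm peaks reached the median, a difference of 9.61 points (2.63 to 16.5).

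The strongest peaks were present near the ends too. In this list the score 3100 is shared by many peaks, and peaks at or above it are called strong here. There were 28 strong end peaks at 17 ends, 26 of them at exactly 3100, and 37 in the comparison zone. Per Mb this is a ratio of 1.77 (1.04 to 2.97), and as a share of peaks 3.44% against 2.25%, a difference of 1.19 points (-0.153 to 2.80). The interval of the latter included 0. The ends of 13q and 16q had 4 strong peaks each and 17q had 3, while 22 ends had none. The highest score belonged to a peak on chromosome 13 at 114631472 to 114632203 (13q34, score 3145.54), 538.0 kb from the end. The second was on chromosome 14 at 105498139 to 105499346 (14q32.33, score 3106.73).

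The other 8 of the 10 highest-ranked end peaks all scored exactly 3100 and are ordered by width, so their rank is not a rank of enrichment. The widest was on chromosome 16 at 88992466 to 88995847 in 16q24.3, with 3382 bp. It was followed by chromosome 21 at 47712227 to 47714829 (2603 bp), which is also the outermost peak of 21q, and chromosome 7 at 2726973 to 2729404 (2432 bp). Next came chromosome 4 at 1238945 to 1240644 (1700 bp) and chromosome 16 at 1240559 to 1242180 (1622 bp). The last 3 were chromosome 9 at 138283566 to 138284993 (1428 bp), chromosome 1 at 1008769 to 1010128 (1360 bp) and chromosome 16 at 88829286 to 88830594 (1309 bp). Of these 10 peaks, 9 had another peak within 10 kb, and the peak on chromosome 21 had its nearest neighbour 92.3 kb away. Among all 28 strong end peaks 19 had such a neighbour, and among all end peaks 42.3% did.

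The peaks nearest to the chromosome ends were weak. In the outermost 0.25 Mb, a step singled out after its values were seen, 20 of 63 peaks (31.7%, interval 21.6 to 44.0%) scored at or above the list's median. In the rest of the end zone 375 of 751 did (49.9%, 46.4 to 53.5%), and the difference was -18.2 points (-28.9 to -5.42). The outermost peak of each end lay 10.1 to 1112 kb from the end, with a median of 136.2 kb. At 16 ends it lay within 100 kb. Of these 39 outermost peaks, 31 scored below the list's median and 18 lay below its lower quartile, while 1, on 21q, was strong.

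The 5 peaks nearest to an end show this pattern. On 4p the first peak ran from 9972 to 10253 (score 60.80), and on 5p from 9969 to 11972 (score 234.22). Those on 18p (13727 to 14207, score 56.18), 15q (102512401 to 102512880, score 82.08) and 19q (59097877 to 59098185, score 56.25) lay 13.97, 18.8 and 31.0 kb from the end. Only that on 5p scored above the list's median. At the other extreme, the outermost 1112 kb of 14q held no peak. That stretch is known to hold variable segments of the immunoglobulin heavy chain locus.

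**Figure D3:**
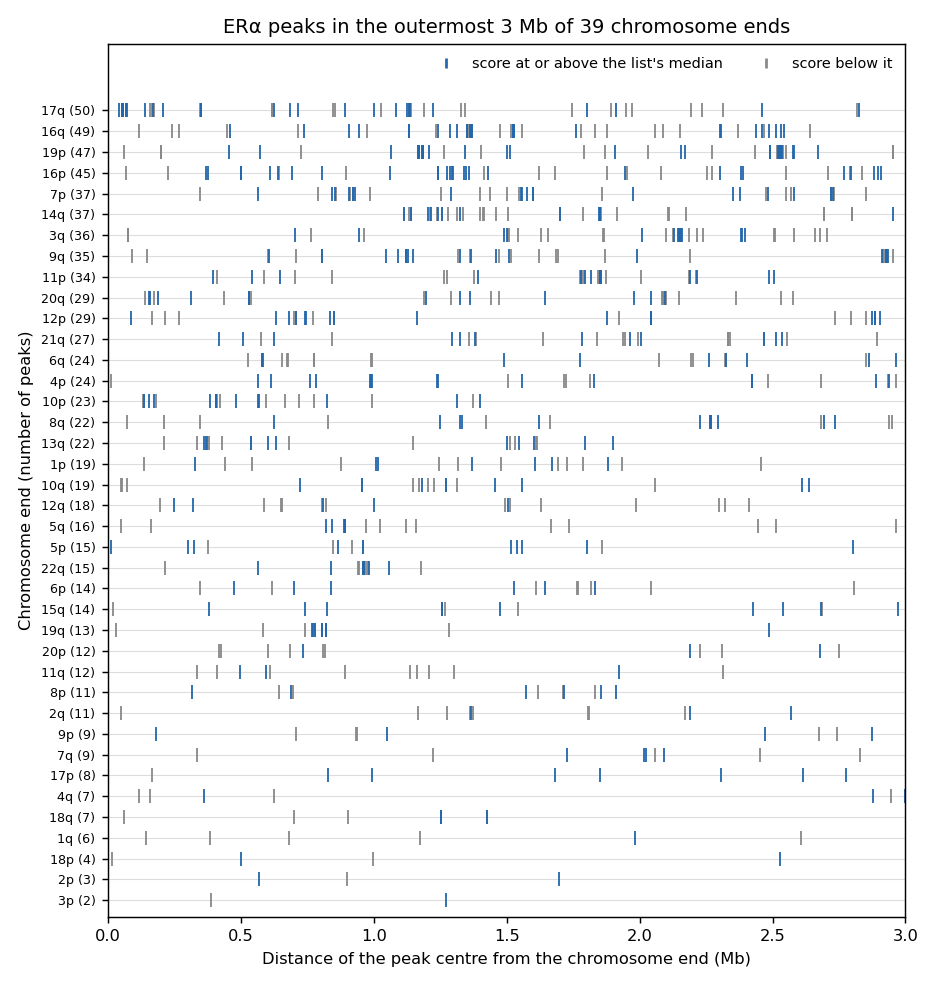
Each tick is the centre of 1 of 814 ERα peaks, placed by its distance from the chromosome end (Mb). Rows are the 39 ends ordered by their number of peaks, given in parentheses. Blue ticks reach the list's median score and grey ticks lie below it. The rows run from 50 peaks at 17q to 2 at 3p, and the first peak of most rows is grey.

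Most end peaks were as wide as those further in. The median width was 530.0 bp (quartiles 426.5 and 689 bp) near the ends and 522 bp (422 and 677.75 bp) from 3 to 10 Mb, a difference of 8 bp with an interval of -14.5 to 24.3 bp. Within the 4 classes set by the quartiles of the score, from low to high, the differences were -5, 14.5, -2 and -35 bp, each with an interval that included 0. Width followed score in both zones, with Spearman correlations across peaks of 0.600 and 0.640. No difference in width between the zones was detectable. The end peaks covered 0.428% of their zone, against 0.368% further in.

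The end of 3q was the exception. It was singled out after its widths were seen. Its 36 peaks had a median width of 1101 bp, and the 778 peaks of the other 38 ends one of 519 bp, a difference of 582 bp (315 to 839 bp). The median widths of the other ends ran from 394 to 636 bp. At 3q, 20 of 36 peaks (55.6%, interval 39.6 to 70.5%) were 1000 bp or wider, against 49 of 778 elsewhere (6.30%, 4.80 to 8.23%). The widths did not go with high scores. Among peaks scoring below 100, the median width was 1066 bp for 19 peaks at 3q and 430.0 bp for 335 peaks at the other ends. Among those at 100 or more it was 1143 bp for 17 peaks and 599 bp for 443. None of the 3q peaks was strong.

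Peaks were also wider in the outer 30 Mb of 3q than further in, by pooled steps. This limit is not sharp, since the 30 to 35 Mb bin alone had a median of 623 bp (321 to 784 bp) for 11 peaks. The median was 504 bp for 184 peaks between 50 and 100 Mb from the end and 508.5 bp for 76 peaks between 30 and 50 Mb. It was 644 bp (604 to 728 bp) from 20 to 30 Mb, 689 bp (636 to 749 bp) from 10 to 20 Mb and 725.5 bp (619 to 790.0 bp) from 3 to 10 Mb. In the last 3 Mb it reached 1101 bp (834 to 1357 bp). The 3 steps between 3 and 30 Mb had overlapping intervals, so no order among them was shown, and in the finer 5 to 10 Mb bin the median was 587 bp (522 to 696 bp). The last 3 Mb stood above these steps, but within them the median was 1333 bp for 21 peaks at 2 to 3 Mb, 1066 bp for 9 peaks at 1 to 2 Mb and 802 bp for 6 peaks in the outermost 1 Mb. The intervals of these 3 medians overlapped. The density of peaks at 3q was 12.0 per Mb in the first 3 Mb and 13.4 in the next 7 Mb. All 36 end peaks lay in band 3q29.

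**Figure D4:**
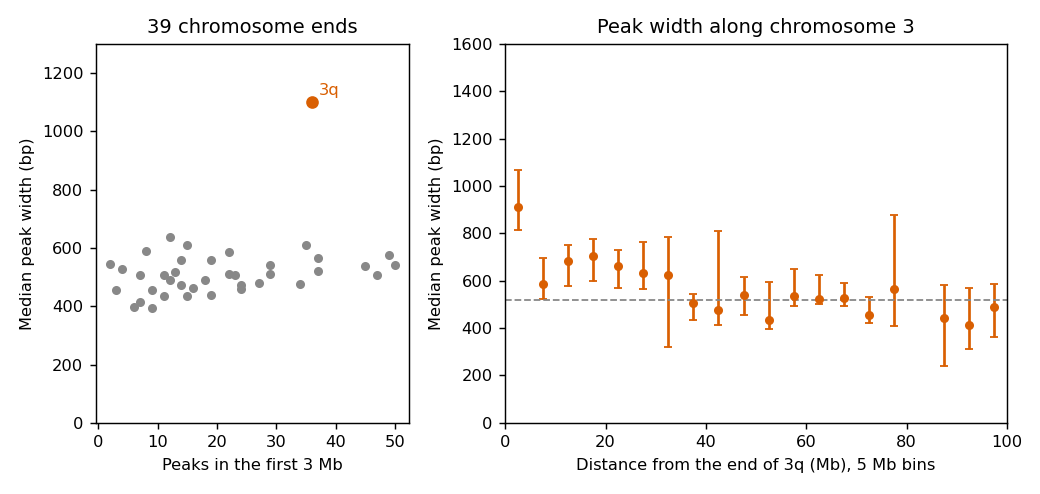
Left: the median peak width (bp) of each of 39 chromosome ends against its number of peaks in the first 3 Mb, with 3q in orange at 1101 bp and the other ends between 394 and 636 bp. Right: the median width in 5 Mb bins along chromosome 3 from the end of 3q, with exact 95% intervals of the median, and the median of the other 38 ends (519 bp) as a dashed line. A bin with fewer than 6 peaks is left out.

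Closeness of peaks to one another differed little between the zones, and the result depended on the zones and ends taken. A second peak centre lay within 10 kb of 344 of the 814 end peaks (42.3%, interval 38.9 to 45.7%) and of 776 of the 1644 peaks from 3 to 10 Mb (47.2%, 44.8 to 49.6%), a difference of -4.94 points (-9.07 to -0.760). Over the autosomes beyond 3 Mb the share was 41.3% (40.4 to 42.1%). Within 5 kb the difference was -5.10 points (-9.02 to -1.07) and within 2 kb it was 0.436 (-2.83 to 3.85), so no difference was detected at the shortest distance. The 10 kb difference rested in part on the dense neighbouring zone of 16q: without 16q it was -2.72 points, with an interval of -6.99 to 1.599 that included 0. Without 14q it was -6.95 points (-11.1 to -2.69). For the first 5 Mb against 5 to 10 Mb it was -1.35 points (-5.31 to 2.61), again with an interval that included 0.

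The share also rises with local density, so it was compared within classes of 1 Mb bins by their number of peaks. In bins of 1 to 4 peaks it was 9.20% near the ends and 17.9% further in, and in bins of 5 to 9 peaks 32.3% and 36.4%. In bins of 10 to 19 peaks it was 44.9% (39.5 to 50.4%) and 53.2% (49.4 to 56.9%), a difference of -8.28 points (-14.8 to -1.59). In bins of 20 or more it was 66.3% and 70.6%. The end zone was lower in all 4 classes, and in 1 of them the interval of the difference excluded 0. The classes did not match the density fully: in that class the end bins held 12.6 peaks on average and the others 13.5, and in the fullest class 22.6 and 25.8. Empty bins were fewer near the ends, 11 of 117 (9.40%) against 50 of 273 (18.3%), and the fullest end bin held 29 peaks against 50 further in.

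**Figure D5:**
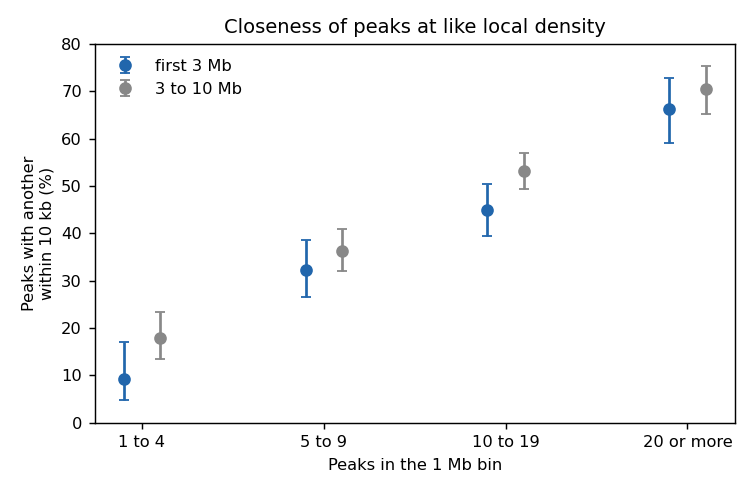
The percentage of ERα peaks with another peak centre within 10 kb, by the number of peaks in the same 1 Mb bin, for the first 3 Mb (blue) and 3 to 10 Mb (grey) of 39 ends, with Wilson 95% intervals. The percentage rises from 9.20 to 66.3 near the ends and from 17.9 to 70.6 further in.

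Merging peaks whose edges lay within 10 kb turned the end peaks into 587 regions, of which 459 held 1 peak and 128 (21.8%, 18.7 to 25.3%) held 2 or more. In the comparison zone 277 of 1134 regions (24.4%, 22 to 27.0%) held 2 or more. The density of regions was 5.02 per Mb (4.62 to 5.44) near the ends and 4.15 (3.92 to 4.40) further in, a ratio of 1.21 (1.09 to 1.34). With each cluster counted once, the density near the ends was still above that of the comparison zone. The density of merged regions was not compared at other merging distances, with a nearer zone alone or within staining bands. The part of clustering in the excess was not tested. Regions of 5 or more peaks numbered 12 with 84 peaks near the ends and 24 with 166 peaks further in. They held 10.3% of the peaks of the end zone and 10.1% of those of the other zone.

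The 12 large clusters lay at 8 ends. On 19p, in band 19p13.3, a cluster of 10 peaks at 1164981 to 1185970 reached a score of 3100, and one of 9 peaks at 2516772 to 2550088 reached 2905.21. The second lies where this band is known to hold GNG7, which encodes a G protein γ subunit. On 11p, in 11p15.5, there were clusters of 9 peaks at 1844322 to 1855927 (top score 2111.10) and of 5 peaks at 1776806 to 1794217 (top score 813.01). This band is known to hold CTSD, a lysosomal protease gene induced by oestrogen in breast cancer cells. On 16q, in 16q24.3, clusters of 8 peaks at 88983597 to 89004896 and of 5 peaks at 88826991 to 88837717 each held 1 strong peak. This band is known to hold CBFA2T3, a transcriptional corepressor gene.

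The clusters on 17q lay at 81122011 to 81143586, with 7 peaks and a top score of 1158.96, and at 80056606 to 80072384, with 6 peaks and a top score of 2213.69. The first was the large cluster nearest to a chromosome end, 62.4 kb from it, and 6 of its 7 peaks scored at or above the list's median, unlike most peaks so far out. On 22q 8 peaks lay at 50323732 to 50347248 (top score 1499.22), and on 9q 7 peaks at 138279716 to 138302190 (top score 3100). On 20q 5 peaks at 60927739 to 60943104 had a median score of 87.4 and a top score of 368.70, and 1 of them reached the list's median. On 3q 5 peaks at 195862340 to 195878149 all scored above the median, with a median score of 1266 and widths of 1143 to 2078 bp. Their centres were 2.50 to 4.19 kb apart.

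At the limit of 3 Mb, the last peak inside was on 4q at 188156762 to 188157199 with a width of 438 bp and a score of 210.98. The first outside was on 17q at 78192134 to 78192607 with a width of 474 bp and a score of 56.10. Their centres lay 2997296 and 3002840 bp from the end.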

How the data were processed

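The authors deposited 1 list of ERα peaks, named by them as against the input, giving each peak's position, name and score. The names carry the prefix MACS, per the file, and Bowtie 0.12.9, CASAVA 1.8, HOMER and the build hg19 appear in the submitters' processing notes, without roles. The version and threshold of the caller, like the handling of duplicate or multiply mapping reads, were not given in the sources used here. Starts were taken as counted from 0, the BED convention, and 1 was added for printing. No peak ran past an hg19 chromosome end (lengths from GenomeInfoDb 1.38.1), and the short-arm ends left out held 0 peaks. Bands came from the hg19 ideogram in circlize 0.4.16.

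Lengths include unsequenced bases, and copy number was not corrected for here. Densities carry exact Poisson intervals, density ratios exact conditional binomial intervals, shares Wilson intervals, differences of shares Newcombe intervals, and medians order-statistic intervals combined in the same way. The density ratio, the width difference and the share of peaks with a neighbour within 10 kb were tested on simulated data, and the other measures were not. Named peaks follow a rule: the 10 highest scores, clusters of 5 or more, the 6 fullest ends, the 5 outermost peaks and those at the limit. The end set, lists and rules were chosen with earlier results of these data known. Computation was done in SciPy 1.17.1, pandas 2.3.3 and NumPy 2.4.6 under Python 3.11.15, and plots in matplotlib 3.10.9.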

Additional observations from a re-analysis of the deposited data

How the results depend on the processing

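The density ratio of 1.16 was 1.27 for 2 Mb against 2 to 10 Mb, 1.29 for 5 Mb against 5 to 10 Mb, 1.06 (0.959 to 1.17) against 3 to 6 Mb alone and 1.66 against the autosomes beyond 3 Mb, and the median end had a difference of 0 peaks per Mb. Leaving out each end in turn gave 1.11 (without 16p) to 1.19 (without 3p). The interval of the ratio also included 1 for peaks at or above the median score (1.08, 0.954 to 1.22) and for Giemsa-negative bands (1.07, 0.968 to 1.17). Other values were 1.21 for the outermost 1 Mb, peaks at or above the upper quartile and merged regions. With lengths counted from the outermost peak it was 1.24, but that setting shortens only the end zone and can only raise the ratio. The width difference of 8 bp was 28 bp for 5 Mb, 25 bp against the autosomes beyond 3 Mb, -11 bp against 3 to 6 Mb, -5, -2 and -35 bp in score classes 1, 3 and 4 (between the list's quartiles) and -6.88 bp as the mean over the 4 classes. The cause of these changes was not tested. The share of peaks with a neighbour within 10 kb was lower near the ends, also within 5 and 50 kb and for other zone limits. These differences ran from -1.35 (5 Mb) to -6.70 points (peaks at or above the median score). The interval included 0 for 2 Mb against 2 to 10 Mb (-4.27 points, -8.79 to 0.335) and for 5 Mb against 5 to 10 Mb (-5.31 to 2.61). Across the 4 density classes the differences ran from -4.06 to -8.74 points, and from -6.95 to -2.72 when each end was left out in turn. Within 2 kb the share was 0.436 points higher near the ends. The difference in the share at or above the median score was -3.48 points, but 1.299 points at or above the upper quartile. Ends denser in the first 3 Mb numbered 19, or 23 after merging. The comparisons without 3q, which gave a width difference of 5 bp, and without 16q in darker bands were added after seeing the data. No paired analysis was possible because the series has a single ChIP and a single input library. How many weak sites escaped the list cannot be told here, since the sequencing depth is unknown and no listed peak scored below 50.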

Other observations

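These patterns were noticed in the data and are given as values, and their cause was not tested. On 14q, 4 pairs of neighbouring ERα peaks repeated 1 arrangement: a peak scoring 669.93 to 1562.20 was followed towards the end by a peak scoring 57.34 to 97.64. The higher peaks began at 106090814, 106109477, 106207747 and 106235634, and the centres within a pair were 1.05, 1.13, 1.15 and 1.73 kb apart. All lie in 14q32.33, a band known to hold the constant region genes of the immunoglobulin heavy chain, only some of which are closely similar duplicates. The end zone held 16 further pairs within 2 kb of a score of 500 or more and one below 100, of which 7 had the higher and 9 the lower peak at the smaller coordinate. In all, the end zone held 20 such pairs in 117 Mb with 814 peaks, and the comparison zone 30 in 273 Mb with 1644 peaks. The difference between the zones was not tested.

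The first peaks of 4p and 5p began 3 bp apart in their chromosomes' numbering, at 9972 and 9969. The peak on 5p was 2004 bp wide and that on 4p 282 bp wide. Both lie where hg19 passes from the unsequenced telomere into known sequence, which on many chromosomes is repeat-rich.

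Of the 354 end peaks scoring below 100, 17 (4.80%, Wilson 95% interval 3.02 to 7.56%) were 1000 bp or wider, and 10 of the 17 lay on 3q. Without 3q the share was 2.09%, against 2.61% of such peaks from 3 to 10 Mb without 3q. In the comparison zone, 11 of the 19 wide low-scoring peaks lay on 16q and 3 on 3q. Outside 3q, 5 of the 7 such end peaks lay within 0.5 Mb of the end: on 10q (1687 bp, score 53.78), 9q (2012 bp, score 80.20), 12p (1837 bp, score 66.59), 17p (1740 bp, score 51.94) and 11q (1430 bp, score 93.12). With 3q included, they were 5 of 55 low-scoring peaks in the first 0.5 Mb (9.09%, 3.95 to 19.6%). From 0.5 to 3 Mb the count was 12 of 299 (4.01%, 2.31 to 6.88%), and with 3q included both intervals overlapped. All 10 of the wide low-scoring 3q peaks were among these 12, so the overlap does not describe the other ends. The shares of the 2 stretches without 3q were not computed.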
